A study of Mus musculus with 2 samples.

Results

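The genes described here encode 42 RNA-binding proteins of neurons: splicing regulators, regulators of messenger RNA stability and translation, and some widely expressed nuclear RNA-binding proteins. They were taken by symbol from the count tables, and all 42 were found among 32531 gene symbols. Of them, 35 belong to 11 paralog families and 7 stand alone. The tissue was the ventral striatum of adult mice of line JX5852, in which a Stard5-EGFP/Rpl10a transgene tags the ribosomes of cells that use Stard5 regulatory sequence. The animals were untreated controls, and both libraries hold RNA from immunopurified tagged polysomes, as replicate 1 and replicate 2 of 1 group. The labels state neither sex nor whether animals were pooled or the replicates came from separate animals, so the spread between the replicates may be technical. No input RNA of the whole tissue was analysed here: a level is therefore not an enrichment, and fewer cells of a type cannot be told apart from less RNA per cell.

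RNA-binding proteins of these families recognise short sequence motifs in nascent or mature transcripts and decide which exons are kept, how long a messenger RNA lasts, where it is carried and when it is translated. Many exist as paralog sets in which 1 member is found in most tissues and others mainly in neurons, and the neuronal members control the exons of synaptic and ion channel proteins.

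Replicate 1 held 25830282 reads in genes and replicate 2 held 29574781. Levels are given as CPM, reads per 1000000 reads in genes, and, where different genes are compared, as RPKM, which is CPM divided by the kilobases of annotated exon of the gene. All 10 markers of spiny projection neurons, the main neuron type of the striatum, were detected, at a median of 370.1 CPM. The libraries differed in the RNA of marker genes of other cell types. The 8 astrocyte markers summed to 908 and 3048 CPM in replicates 1 and 2, of which Slc1a2 alone held 741 and 2496 CPM. The 8 oligodendrocyte markers summed to 869.6 and 1344 CPM. The 6 microglia markers were lower in replicate 2, at 160 and 123 CPM. The share of reads that fell in no annotated exon was 22.8% for replicate 1 and 31.0% for replicate 2.

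Paralogs of these families share only short identical stretches of coding sequence. In 45 pairs within families, the longest identical run of coding sequence was 12 to 44 bases, with a median of 17, and 2 pairs exceeded 30 bases. The pairs below are shown because their capitals mark the longest run of bases that both paralogs hold, so that a fragment inside it matches both, with 15 coding bases on either side in lower case, from the GENCODE M21 transcripts of GRCm38 (5′ to 3′, sense strand). Rbfox1 and Rbfox2 share 29 bases:
Rbfox1: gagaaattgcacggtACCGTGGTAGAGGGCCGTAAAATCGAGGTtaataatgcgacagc
Rbfox2: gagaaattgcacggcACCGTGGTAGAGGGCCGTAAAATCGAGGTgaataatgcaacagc
Elavl3 and Elavl4 also share 29 bases:
Elavl3: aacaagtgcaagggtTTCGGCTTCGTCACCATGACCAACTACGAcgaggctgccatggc
Elavl4: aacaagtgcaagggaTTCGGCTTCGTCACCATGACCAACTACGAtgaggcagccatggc
Cpeb2 and Cpeb4 share a run of the same length:
Cpeb2: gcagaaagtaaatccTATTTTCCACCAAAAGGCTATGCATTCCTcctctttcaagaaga
Cpeb4: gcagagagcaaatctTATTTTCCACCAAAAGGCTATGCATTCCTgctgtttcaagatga
Msi1 and Msi2 share 44 bases, the longest run of all pairs:
Msi1: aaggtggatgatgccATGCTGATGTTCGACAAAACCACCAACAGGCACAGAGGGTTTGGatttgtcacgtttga
Msi2: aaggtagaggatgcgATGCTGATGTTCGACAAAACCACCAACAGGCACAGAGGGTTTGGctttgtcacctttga

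Of the 42 genes, 41 were detected, meaning 1 CPM or more in both libraries, 39 reached 10 CPM and 25 reached 100 CPM in both. Their median level was 163 CPM, against 23.1 CPM over all 12374 detected genes, and 35 of the 42 lay above that background median. Per length, their median was 19.3 RPKM against 5.31 RPKM over the 11465 detected genes with a length, with 34 of 42 above 5.31 RPKM. Together they took 1.01% (replicate 1) and 0.993% (replicate 2) of reads in genes. The 5 genes with the highest CPM (Celf2, Celf4, Rbfox1, Mbnl2 and Matr3) held 44.3% and 42.5% of those reads.

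**Figure D1:**
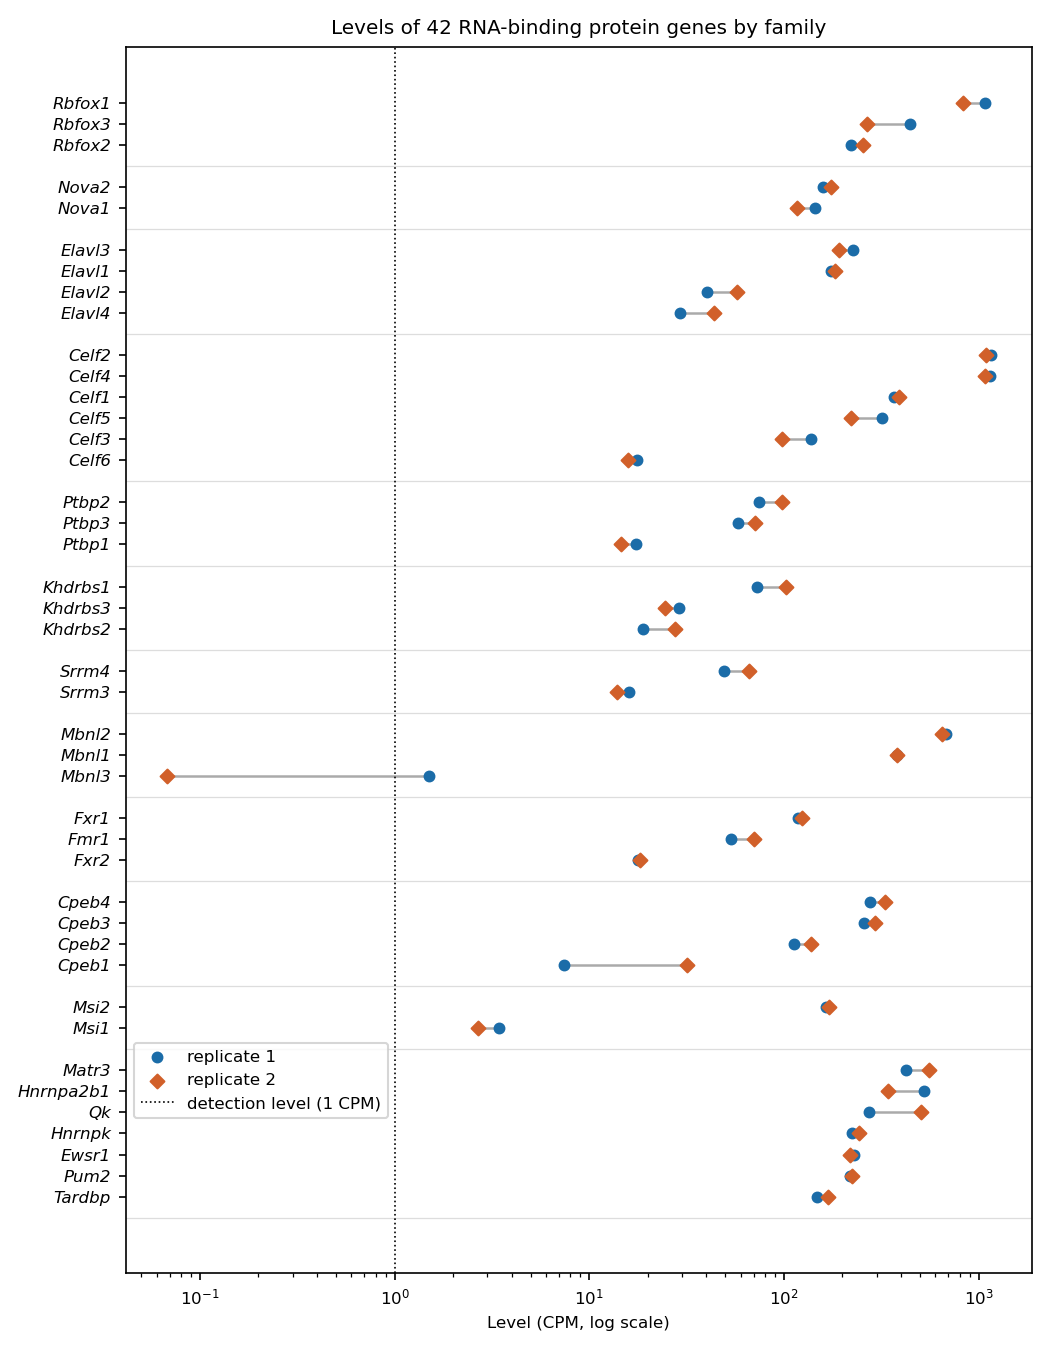
Level in CPM (log axis) of each of the 42 genes in replicate 1 (circles) and replicate 2 (diamonds), grouped by paralog family with the 7 single genes last, and a grey line joining the libraries. Celf2, Celf4 and Rbfox1 stand at the right near 1000 CPM, while Mbnl3 falls below the dotted detection level of 1 CPM in replicate 2 and Cpeb1 shows the widest gap among the detected genes.

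The RBFOX proteins bind UGCAUG in introns and promote or repress nearby exons by position. Rbfox1 had the highest RPKM of the 42 genes, at 246 in replicate 1 and 189 in replicate 2 (mean 218 ± 40.2 RPKM, SD, n = 2). Its locus in GRCm38 (ENSMUSG00000008658.16) spans bases 5885355 to 7411526 of chromosome 16, plus strand. In CPM it stood at 1082 and 832, rank 99 of all genes. Rbfox3, the gene of the neuronal antigen NeuN, followed at 76.7 and 45.8 RPKM, and Rbfox2, the member found in most tissues, at 27.2 and 31.5 RPKM. The order Rbfox1, Rbfox3, Rbfox2 was the same in both libraries, and Rbfox1 held 70.3% and 71.0% of the family level per length. Its lead over Rbfox3 was 1.86 ± 0.26 on the log2 scale (n = 2).

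CELF proteins bind UG-rich sequence and act on splicing in the nucleus and on stability and translation in the cytoplasm. Celf1 and Celf2 are found in many tissues, while Celf3, Celf4, Celf5 and Celf6 are found mainly in the nervous system. Celf4 led the family at 133 and 127 RPKM in replicates 1 and 2, next to Rbfox1 in the order of all 42 genes. Celf1 stood at 43.4 and 46.0 RPKM, Celf2 at 44.7 and 42.2 RPKM and Celf5 at 48.1 and 33.3 RPKM. By this length the order of these 3 genes differed between the libraries. In CPM, and per kilobase of the longest transcript or of coding sequence, Celf2 stood above Celf1 and Celf5 in both libraries. Their ranking therefore depends on the length used. Celf3 was lower, at 25.2 and 17.8 RPKM, and Celf6 lowest, at 4.86 and 4.37 RPKM.

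In CPM, Celf2 (1157 and 1092) and Celf4 (1143 and 1086) were almost level, with Celf2 ahead by 0.01 on the log2 scale. Their difference per length rests on the annotation, because the union of all annotated Celf2 exons spans 25884 bases but its longest transcript 8856, against 8583 and 3995 bases for Celf4. Per kilobase of the longest transcript, Celf4 led Celf2 by 1.14 ± 0.01 on the log2 scale. Per kilobase of coding sequence the lead was 0.05 ± 0.01. Celf4 therefore headed the family under each of these lengths, by an amount that the files do not fix.

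NOVA proteins bind clusters of YCAY motifs and control exons of inhibitory synapse proteins. Nova2 stood at 19.0 and 20.9 RPKM and Nova1 at 16.5 and 13.4 RPKM. Nova2 was ahead in both libraries, by 0.42 ± 0.31 on the log2 scale (SD, n = 2), little more than the spread. Of the exon bases of Nova2, 31.7% overlap the lincRNA gene Gm26821 on the opposite strand. Gm26821 is not among the counted symbols, so reads of that gene may have been counted to Nova2, which cannot be told here. Per kilobase of the longest transcript the lead was 0.13 ± 0.31, and the order then differed between the libraries. Per kilobase of exon without bases shared with other genes it was 0.92 ± 0.31, a length that takes the reads of the shared bases as lost.

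ELAVL proteins bind AU-rich elements and stabilise messenger RNAs. Elavl1, which encodes the widely expressed HuR, stood at 16.9 and 17.7 RPKM, between the neuronal members Elavl3 at 33.1 and 27.9 RPKM and Elavl4 at 5.43 and 8.14 RPKM. Elavl2 was lowest, at 4.84 and 6.91 RPKM, while in CPM or per kilobase of the longest transcript Elavl4 was lowest. The 3 neuronal members together made up 72.0% and 70.8% of the family per length, mostly through Elavl3. Elavl3 was ahead of Elavl1 by 0.81 ± 0.22 on the log2 scale, but by 0.05 ± 0.22 per kilobase of coding sequence, where the leader differed between the libraries. Between libraries the neuronal members did not move alike: Elavl3 was lower in replicate 2 and Elavl2 and Elavl4 higher, with log2 ratios of -0.22, 0.54 and 0.61 of replicate 2 over replicate 1.

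PTB proteins bind CU-rich tracts and mostly repress exons. Ptbp1 is found in most non-neuronal cells and is replaced by Ptbp2 when neurons form, and Ptbp3 is a further paralog. Ptbp2 stood at 8.14 and 10.6 RPKM, Ptbp3 at 7.77 and 9.54 RPKM and Ptbp1 at 3.68 and 3.07 RPKM. Ptbp1 was the lowest of the family in both libraries, 1.47 ± 0.45 below Ptbp2 on the log2 scale (n = 2). Ptbp2 and Ptbp3 were close, 0.11 ± 0.06 apart, and 1.17 ± 0.06 apart per kilobase of the longest transcript. Of the exon bases of Ptbp1, 20.7% overlap other genes, among them Plppr3, so part of its reads may be lost or belong to these genes.

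Switching between these paralogs runs through a coding exon of Ptbp2 of 34 bases. PTBP1 promotes its skipping, which shifts the reading frame and sends the transcript to decay. The exon is printed in capitals with 20 transcript bases of its neighbours on either side, because the counts pool transcripts with and without it and therefore do not show which form was bound to ribosomes. It lies on the minus strand of GRCm38 at chr3:119724612-119724645, and 3 of 7 annotated Ptbp2 transcripts with a coding sequence hold it:
Ptbp2: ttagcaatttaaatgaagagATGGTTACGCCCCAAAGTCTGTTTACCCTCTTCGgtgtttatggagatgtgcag

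KHDRBS proteins are signal-regulated KH-domain proteins that bind UA-rich motifs and control, among others, neurexin exons. Khdrbs1, the widely expressed member, stood at 11.4 and 16.1 RPKM, above the neuronal members Khdrbs3 at 7.90 and 6.66 RPKM and Khdrbs2 at 1.83 and 2.67 RPKM. The order was the same in both libraries. Here the broadly expressed member led, by 0.90 ± 0.53 on the log2 scale over Khdrbs3. In CPM and per kilobase of coding sequence, Khdrbs2 stood above Khdrbs3 in replicate 2 only.

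Srrm4 and Srrm3 encode SR-related proteins that promote the inclusion of neuronal microexons. Srrm4 stood at 5.71 and 7.67 RPKM and Srrm3 at 2.51 and 2.18 RPKM. Srrm4 made up 69.4% and 77.9% of the pair. Both were far below Rbfox1 and the main CELF genes per length.

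Muscleblind proteins bind YGCY motifs, drive adult splicing patterns and are captured by repeat RNA in myotonic dystrophy. Mbnl2 stood at 56.9 and 54.4 RPKM and Mbnl1 at 20.3 and 20.4 RPKM, with little spread between the libraries before any correction for length. Mbnl2 led by 1.45 ± 0.05 on the log2 scale, and by 0.81 ± 0.05 in CPM, since the annotated exons of Mbnl1 span 18717 bases. Mbnl3, which is mainly known from placenta and regenerating muscle, was the only 1 of the 42 genes not detected. It had 39 reads in replicate 1 and 2 in replicate 2, or 1.51 and 0.0676 CPM, a ratio of replicate 2 over replicate 1 of 0.0456 with an exact counting interval of 0.00533 to 0.176.

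**Figure D2:**
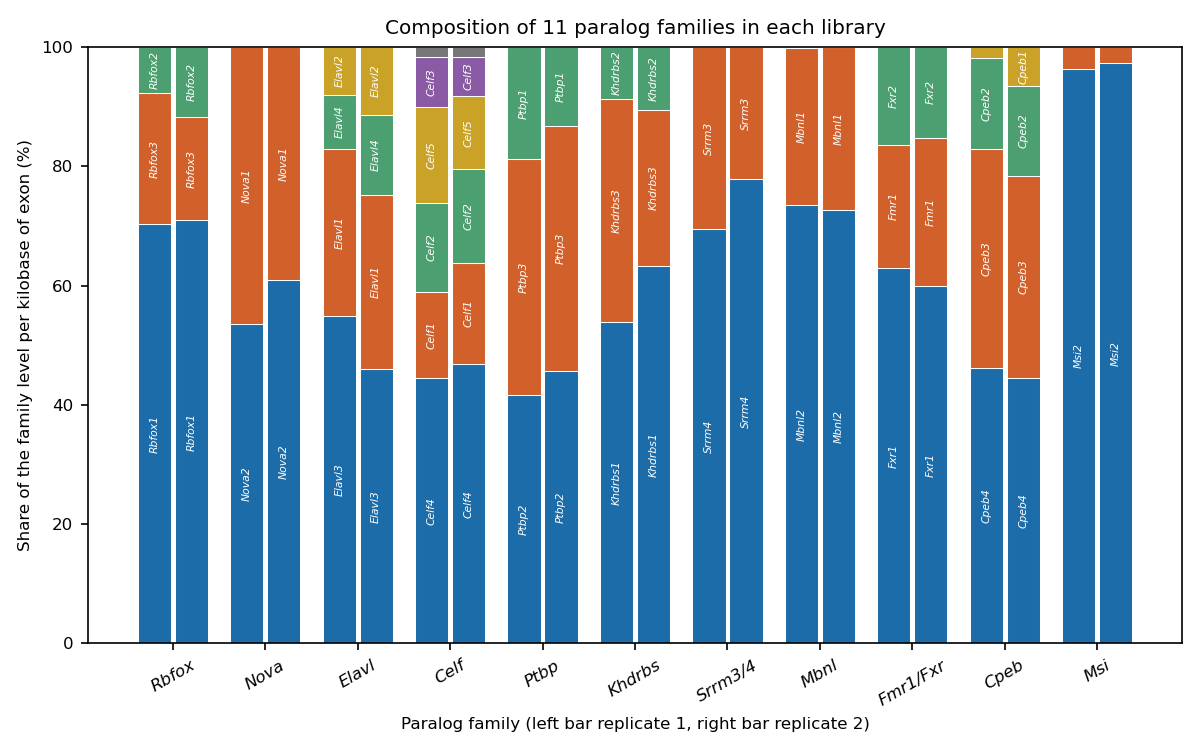
Share of each paralog in the summed RPKM of its family (vertical axis, percent), with replicate 1 as the left and replicate 2 as the right bar of each of 11 families. Members are stacked in both bars by mean share, with the highest at the bottom. In every family this bottom gene also held the largest share in each library. The lowest of these shares were 41.6% in replicate 1 (Ptbp2) and 44.5% in replicate 2 (Cpeb4). The highest were 96.4% and 97.3% (Msi2).

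Fmr1 encodes the fragile X protein FMRP, which holds back translation of many synaptic messenger RNAs, and Fxr1 and Fxr2 are its paralogs. Fxr1 led at 18.1 and 19.0 RPKM, ahead of Fmr1 at 5.97 and 7.86 RPKM and Fxr2 at 4.72 and 4.82 RPKM. Fxr1 exceeded Fmr1 by 1.44 ± 0.24 on the log2 scale, and Fmr1 exceeded Fxr2 by 0.52 ± 0.26 (n = 2).

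CPEB proteins bind U-rich elements and control the length of the poly(A) tail and translation in the cytoplasm, also near synapses. Cpeb4 stood at 43.6 and 52.1 RPKM, Cpeb3 at 34.8 and 39.6 RPKM and Cpeb2 at 14.4 and 17.6 RPKM. Cpeb1 was lowest, at 1.77 and 7.57 RPKM. Cpeb4 led Cpeb3 by 0.36 ± 0.05 on the log2 scale, and by 0.05 ± 0.05 per kilobase of the longest transcript, so these genes were nearly level. The order of the family was the same in both libraries, though Cpeb1 made up 1.87% of it in replicate 1 and 6.48% in replicate 2.

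Musashi proteins regulate translation, and Msi1 is known from neural stem cells and astrocytes. Msi2 stood at 15.8 and 16.3 RPKM and Msi1 at 0.594 and 0.461 RPKM, from 89 and 79 reads. Msi2 made up 96.4% and 97.3% of the pair, the most uneven of the 11 families.

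Of the 7 single genes, Hnrnpa2b1 had the highest mean per length, with 79.9 and 52.1 RPKM in replicates 1 and 2. Its protein packages nuclear RNA and binds transport signals. Matr3, a nuclear matrix RNA-binding protein, stood at 41.6 and 55.1 RPKM, above Hnrnpa2b1 in replicate 2. Ewsr1, of the FET family, stood at 38.9 and 37.0 RPKM, and Hnrnpk, a poly(C)-binding protein, at 34.5 and 37.6 RPKM. All 4 lay below Rbfox1 and Celf4 and held places 3 to 13 of 42 by mean RPKM. Pum2, a Pumilio repressor of translation, stood at 30.1 and 30.8 RPKM, and Tardbp, a nuclear protein that represses cryptic exons, at 19.1 and 21.6 RPKM. Qk, the quaking gene, which controls glial splicing and myelin messenger RNAs, stood at 19.3 and 35.7 RPKM, which put it at place 19 of 42 in replicate 1 and place 13 in replicate 2.

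Reads of some of these genes are less certain. Windows of 50 bases in the transcript with the longest coding sequence also occurred in transcripts of other genes for 37.8% of Hnrnpk, 33.8% of Ewsr1, 28.7% of Matr3 and 24.4% of Tardbp. For Hnrnpk and Ewsr1 the leading other genes were Gm7964 and Gm6627, and for Tardbp Masp2, which overlaps it on the opposite strand and had 0 reads in both libraries. For Matr3 the leading other gene was Gm28285, which overlaps it on the same strand and is not among the counted symbols.

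The order of neighbouring genes was mostly not resolved. Over the 41 neighbouring pairs in the order of mean RPKM, 23 differed in order between the libraries, and for 14 the mean gap exceeded its SD. Rbfox1, Celf4 and Hnrnpa2b1 at the top, and Khdrbs2 and Msi1 near the bottom, were each apart from the next gene down by more than the SD of the gap. The lead of Rbfox1 over Celf4 depends on the length used. Per kilobase of the longest transcript, Rbfox1 stood at 354 and 272 and Celf4 at 286 and 272 in replicates 1 and 2. In CPM, Celf2 and Celf4 stood above Rbfox1 in both libraries. Hnrnpa2b1, however, held place 3 in replicate 1 and place 6 in replicate 2. From Rbfox3 at place 4 to Cpeb3 at place 12, no gap between neighbours exceeded its SD.

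Most of the 42 genes, though not all, have longer untranslated sequence and more annotated transcripts than the median detected coding gene. Their longest annotated 3′ untranslated region had a median of 2926.5 bases, against 1545.5 bases over 11178 detected coding genes, and 33 of 42 lay above 1545.5 bases, while Hnrnpa2b1 was shortest at 526 bases. They had a median of 9.5 annotated transcripts against 5, and 34 lay above 5, while Nova2 had 2. Their coding sequences were of ordinary length, with medians of 1462.5 and 1476 bases.

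Between the libraries, most of the 42 genes differed little. A gene counted as different when an exact binomial test on its reads, with TMM-scaled library sizes and Benjamini-Hochberg adjustment over 12374 detected genes, gave an adjusted p below 0.05 and the ratio was at least 2-fold. Both libraries belong to 1 group, so the test speaks of these libraries and covers counting error alone. It called 1 of the 41 detected genes, against 17.4% of all detected genes. That gene was higher in replicate 2, where 9.57% of all detected genes were called, and 0 of the 41 were called as higher in replicate 1, against 7.78%. In both sets the typical size of the difference can be read from the median absolute log2 ratio, which was 0.24 for the 41 genes and 0.45 for all detected genes. Of the 41, 30 lay below the value of all genes. The 41 genes also lie higher in level than most detected genes, and the part of level in this comparison was not tested.

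**Figure D3:**
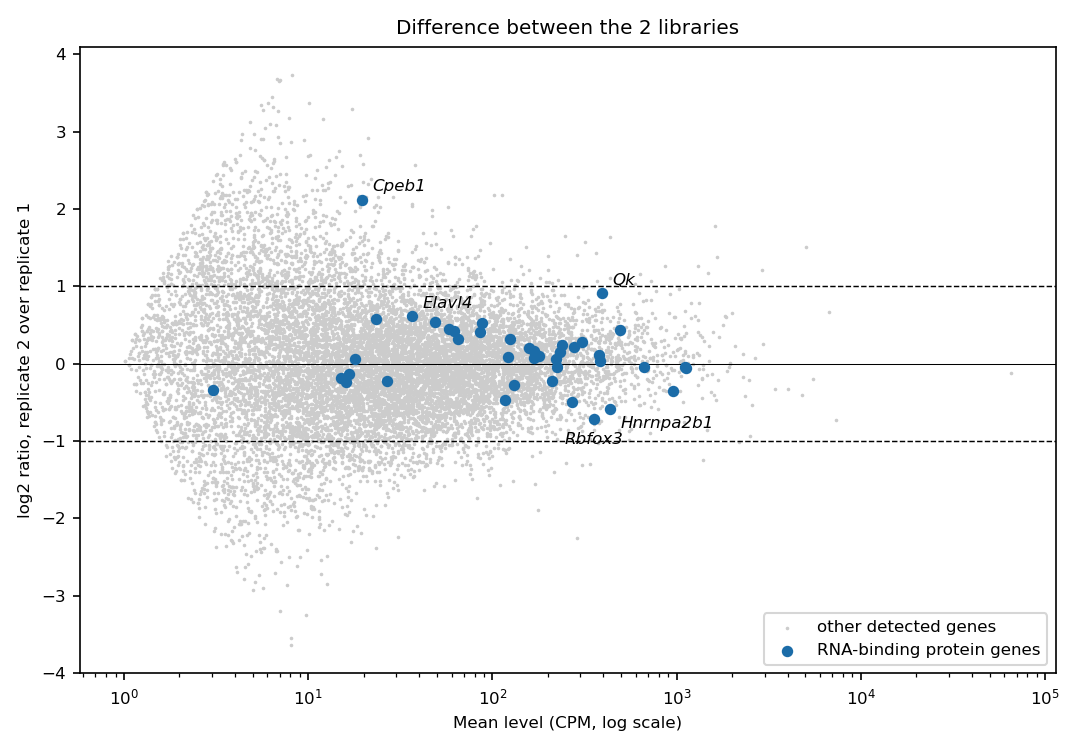
Log2 ratio of replicate 2 over replicate 1 (vertical axis) against mean CPM (log axis) for 41 detected RNA-binding protein genes (blue) and all other detected genes (grey), with dashed lines at a 2-fold ratio. Named genes are those at a 1.5-fold ratio or more: Cpeb1, alone beyond a dashed line, Qk and Elavl4 above 0, and Rbfox3 and Hnrnpa2b1 below 0.

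The gene that passed was Cpeb1 (ENSMUSG00000025586.17, chromosome 7, 81347026 to 81455465, minus strand). It had 192 reads in replicate 1 and 939 in replicate 2, or 7.43 CPM (exact Poisson 95% interval 6.42 to 8.56) and 31.8 CPM (29.8 to 33.8). Its ratio of replicate 2 over replicate 1 was 4.35 (3.72 to 5.11), a log2 ratio of 2.12 with an adjusted p of 4.95e-99 in the exact binomial test (2.06e-96 to 2.12e-94 under the other scalings). This exceeded the absolute ratio of 98.2% of all detected genes. The other CPEB genes were higher in replicate 2 by 0.21 to 0.32 on the log2 scale, short of a 2-fold ratio. No annotated exon of another gene overlaps those of Cpeb1.

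At a 1.5-fold ratio, 5 of the 41 genes passed, against 38.3% of all detected genes: 3 were higher in replicate 2, against 19.3%, and 2 in replicate 1, against 18.9%. Qk had levels of 275 and 508 CPM in replicates 1 and 2, a log2 ratio of 0.91, and Elavl4 29.2 and 43.9 CPM, a log2 ratio of 0.61. With TMM factors estimated over all genes the ratio of Elavl4 was 0.57, short of 1.5-fold, and 4 genes passed. Rbfox3 had 446 and 266 CPM, a log2 ratio of -0.72, and Hnrnpa2b1 at 526 and 343 CPM, a log2 ratio of -0.59. With no fold required, 35 passed, 23 higher in replicate 2 and 12 higher in replicate 1, against 39.1% and 39.8% of all detected genes and 78.9% in either direction.

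Astrocyte and oligodendrocyte markers and nuclear RNAs were higher in replicate 2. Of the 41 detected genes, 25 had a log2 ratio above 0, Cpeb1, Qk and Elavl4 among them, and 16 below 0. Of all 12374 detected genes, 6158 lay above and 6216 below 0. Msi1, known from astrocytes among other cells, had a log2 ratio of -0.34 from 89 and 79 reads. In the exact binomial test its adjusted p was 0.167. The exact counting interval of its ratio of replicate 2 over replicate 1 was 0.576 to 1.08, so its direction was not resolved. The counts of markers past the test stand against 17.4% of all detected genes at 2-fold and 78.9% with no fold required. The astrocyte list had a median log2 ratio of 1.73, with 7 of 8 members past the 2-fold test, all higher in replicate 2, led in level by Slc1a2 at 741 and 2496 CPM and Aldoc at 80.8 and 225 CPM. The oligodendrocyte list had a median of 0.74, with 2 of 8 past the test, and Mbp stood at 281 and 374 CPM. Of the 4 precursor markers, 3 were detected, with a median of 0.98 and 1 past the test, and Vcan and Pdgfra stood at 35.5 and 68.9 CPM and at 14.5 and 58.8 CPM. The 5 nuclear RNAs had a median of 1.38, with 4 past the test, and Malat1 stood at 2666 and 7461 CPM and Meg3 at 927 and 2367 CPM. Spiny neuron markers had a median of -0.19 and 0 of 10 past the test, of which 9 gave an adjusted p below 0.05 with no fold required, and Arpp21 and Gnal stood at 3037 and 2063 CPM and at 2681 and 2283 CPM. Microglia markers had a median of -0.34 with 0 of 6 past the 2-fold test and 5 with no fold required, led by Ctss at 51.3 and 43.5 CPM and Csf1r at 49.6 and 28.1 CPM. Of the 5 endothelial and mural markers 4 were detected, with a median of 0.22 and 1 called (higher in replicate 1), and Rgs5 stood at 6.85 and 13.3 CPM and Flt1 at 10.7 and 8.93 CPM. The part of these differences in the values of Cpeb1, Qk, Rbfox3 and Hnrnpa2b1 was not tested.

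Longer genes also tended to be higher in replicate 2, with a Spearman correlation of 0.292 between exon length and log2 ratio across 11465 detected genes, which share the same libraries. With this trend removed, the ratio of Qk, whose exons span 14242 bases, was 0.61 in place of 0.91 on the log2 scale, and that of Cpeb1 was 2.17. Genes with long exons that were nearly level between the libraries moved further below 0: Celf2 was at -0.57 in place of -0.06, and Mbnl1 at -0.36 in place of 0.03.

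**Figure D4:**
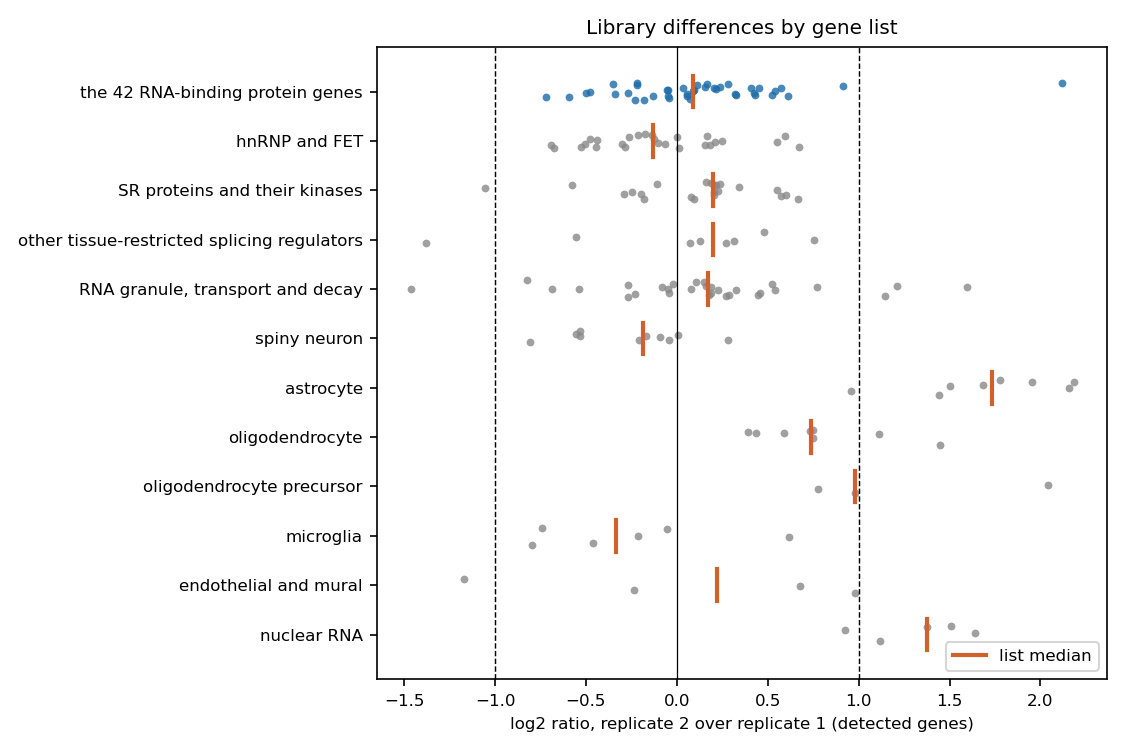
Log2 ratio of replicate 2 over replicate 1 (horizontal axis) of the detected genes of each list, 1 point per gene, with an orange bar at the list median and dashed lines at a 2-fold ratio. The 42 RNA-binding protein genes, of which 41 were detected, have a median of 0.09, while the astrocyte and nuclear RNA lists lie to the right at 1.73 and 1.38.

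The 4 further lists of RNA-binding genes had their own ranges. All 26 other hnRNP and FET genes were detected, at a median of 115 CPM, against 163 CPM for the 42 genes. Per length this gap was absent, with medians of 19.26 RPKM for the 42 genes and 19.98 RPKM for these 26. The highest were Hnrnpa0 at 64.5 and 51.5 RPKM, Hnrnpul2 at 54.9 and 50.1 RPKM and Hnrnph1 at 52.9 and 47.6 RPKM, and the lowest was Pcbp4 at a mean of 1.60 ± 0.146 RPKM (SD, n = 2). By the 2-fold test 0 of 26 differed between the libraries, against 17.4% of all detected genes, while 21 gave an adjusted p below 0.05 with no fold required, near the 78.9% of all detected genes.

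Of 23 SR proteins and their kinases, which bind exonic enhancers or phosphorylate the proteins that do, 22 were detected, at a list median of 9.84 RPKM. Srrm2, a scaffold of nuclear speckles, stood at 94.8 and 118 RPKM, Srsf5 at 42.3 and 66.0 RPKM, Son at 23.9 and 34.5 RPKM and Srpk3, the lowest, at 0 and 0.255 RPKM. Srsf10, at 82.2 and 38.8 CPM, was the only 1 of the 22 called by the 2-fold test, against 17.4% of all detected genes. It was higher in replicate 1, against 7.78%.

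Of 31 RNA granule, transport and decay genes 30 were detected, at a median of 11.1 RPKM. The stress granule gene G3bp2 led at 109.5 and 135 RPKM, followed by Purb at 69.6 and 66.2 RPKM and Ybx1 at 82.1 and 45.5 RPKM, while Igf2bp1, an oncofetal gene, had 0.00800 and 0 RPKM. Between the libraries, 4 of the 30 passed the 2-fold test, against 17.4% of all detected genes. Higher in replicate 2, against 9.57%, were Igf2bp3, Samd4 and Zfp36l1, with log2 ratios of 1.60, 1.21 and 1.15. Higher in replicate 1, against 7.78%, was Ybx3 with -1.46. Of 12 genes listed as other splicing regulators, not all of them restricted to a tissue, 8 were detected. Rbm24 stood at 22.1 and 14.8 RPKM, Rbms3 at 10.2 and 12.1 RPKM and Rbms1 at 5.23 and 5.62 RPKM. Rbms2, at a log2 ratio of -1.38, was the only 1 of the 8 called, against the same 17.4%. Srsf10, these 4 genes and Rbms2 are named after their values were seen. The epithelial splicing factor gene Esrp1 had 0 reads in both libraries, and a limit of 3 reads corresponds to 0.116 and 0.101 CPM.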

How the data were processed

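Whole-number read counts per gene symbol were deposited by the authors for each library, and the tools were STAR 2.0.0e and HTSeq with build mm10, per the submitters' processing notes. For annotation, strand setting and read filters nothing is stated: each was not given in the sources used here. Lines that name no gene (6 per file) were left out: reads outside exons made up 22.8% and 31.0% of all counted reads in replicates 1 and 2, ambiguous reads 1.84% and 2.08%, and reads with several alignments 27.9% and 13.6%. From the counts, CPM and RPKM were computed with exon lengths of GENCODE M21 (GRCm38), matched by symbol for 42 of 42 genes and 92.7% of detected genes. Intervals are exact, at 95%, and cover counting error only. Libraries were scaled by TMM (edgeR 4.0.16) or DESeq2 1.42.0 size factors, and the exact binomial test (scipy 1.17.1) was tested on simulated data. All 42 genes are named, and of each further list of RNA-binding genes the 3 highest and the lowest by RPKM, and of each marker list the 2 highest by CPM, of which 1 gene is not reported here. The genes, lists and tests were chosen with earlier results of these data known, and the TMM factors were set to use detected genes after the calls over all genes had been seen.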

Additional observations from a re-analysis of the deposited data

How the results depend on the processing

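No paired analysis was possible because the series holds a single group. Of the 42 genes, 41 were detected, 40 to 42 under the other detection levels, without Rn45s in the total, or with 1 library left out (41 to 42). Called between libraries was 1 gene, Cpeb1, also with plain totals, DESeq2 size factors, TMM factors over all genes, a filter at a mean of 5 CPM or the length trend removed. Of all genes tested, 17.4% were called, and 17.4% to 17.5% under the other scalings. This share was 14.5% with the filter at a mean of 5 CPM and 14.8% with the length trend removed. The trend was taken out of the ratios only, and each gene kept the adjusted p of its uncorrected ratio. The count was 5 at a 1.5-fold ratio, against 38.3% of all genes. With TMM factors over all genes it was 4, without Elavl4, against 38.6%. It was 35 with no fold required, against 78.9%. With no filter on low counts it was 2, with Mbnl3 added, against 30.6%. The same gene led in 11 of 11 families, also with 1 library left out (11 to 11), in CPM, and without exon bases shared with other genes, and in 10 of 11 per kilobase of the longest transcript or of coding sequence. In CPM, Celf2 replaced Celf4 as leader. The median level on the log2(CPM + 1) scale was 7.35, and 7.27 to 7.41 with 1 library left out. The median log2 ratio of the 41 genes was 0.09, 0.04 to 0.09 under the other scalings and filter, and -0.02 with the length trend removed. The trend, the length without shared bases and TMM over all genes were added after the data were seen; all genes were used for TMM first, and the change to detected genes was made with both results seen. Of 41 log2 ratios, 0 changed sign with plain totals, 1 with DESeq2 factors, 1 with TMM over all genes and 5 with the trend removed. With 1 group of 2 libraries, the counts bound only counting error for genes such as Mbnl3 (2 reads in replicate 2).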
